A study of Mus musculus with 2 samples.

Results

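The oxidative phosphorylation genes were followed as 99 of the 32285 genes in count tables of mouse dorsal skin cells. Of these, 13 are encoded by mitochondrial DNA and 86 by nuclear DNA, and the sets were kept apart. Members were chosen by symbol: mt-Nd, mt-Co, mt-Cyt and mt-Atp for the mitochondrial set, and Nduf (without the Ndufaf assembly factors), Uqcr, Sdh, Atp5 and Cox4 to Cox8 for the nuclear set. At least 50 unique molecular identifiers (UMIs, tags that count each captured RNA molecule once) over both libraries were also required. Of 103 matching symbols, Cox8b (48 UMIs), Cox6a2 (27), Cox7b2 (19) and Cox8c (1) lay under this minimum, and the lowest members were Cox7a1 (372) and Cox4i2 (1166). Members comprised 44 genes of complex I (7 mitochondrial), 4 subunits and 4 assembly factors of complex II, 9 genes of complex III (1 mitochondrial), 19 of complex IV (3 mitochondrial) and 19 of complex V (2 mitochondrial).

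Oxidative phosphorylation passes electrons from NADH through complex I, and from succinate through complex II, to complex III, cytochrome c and complex IV, which reduces oxygen. The proton gradient this builds drives complex V, the ATP synthase. Mitochondrial DNA encodes core subunits of every complex except complex II, and its genes are transcribed as long RNAs that are then cut apart, while all other subunits are nuclear. In mouse skin, respiration in keratinocytes is known to be needed for normal hair follicle growth.

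The study compared the skin of an androgenetic alopecia (AGA) model with control skin. Male C3H/HeN mice were shaved on the back at 7 weeks of age, and skin was taken at 9 weeks. Control mice received vehicle, and mice of the TP group received testosterone propionate under the skin at 0.5 mg/day. Skin of 15 mice per group was pooled, and each pool gave 1 droplet library, so there was 1 library per condition, without replicates, and differences were not tested. The group that also received a CXCL12-neutralizing antibody is not analysed here.

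The deposited tables held 45709 control and 25931 TP barcodes with 130999979 and 166929585 UMIs. After the limits on genes and mitochondrial content and the removal of doublets, 39076 control and 18542 TP cells were kept, with medians of 2045 and 4774.5 UMIs. The libraries shared 303 barcodes, of which 186 were kept in both. Cells fell into 16 classes, named "-like" from fixed markers because no annotation was used, and 6 unnamed clusters of at least 50 cells per library. Altogether 14379 control and 2857 TP cells stayed unnamed. Cluster 2 was led by histone genes with Pclaf and Stmn1, cluster 3 by mitotic genes such as Knl1 and Aspm, and cluster 6 by Ntn1 and Edar. Cluster 18 was led by Acsm3 and S100a3, cluster 0 by Hbb-bs and Krt71, and cluster 29 by smooth muscle genes (Myh11, Tagln, Acta2), with skeletal muscle genes such as Acta1 leading 24 of its 63 control and 40 of its 112 TP cells. The median number of UMIs per cell was higher in TP in 21 of these 22 groups of cells.

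Levels are the pooled UMIs of all cells in a class as a part of every UMI in those cells, given as a percentage for the mitochondrial set and as CPM (UMIs scaled to a library of 1e6) for nuclear genes. The assay counts molecules from the 3' end, so levels were not divided by gene length and were compared between libraries and classes, not between genes. Ratios are TP over control, with 95% intervals in parentheses (exact Poisson for sums, exact conditional binomial for ratios) that cover counting error only. A gene was counted as higher or lower where the ratio passed 1.5-fold in either direction and the gene had at least 200 UMIs over both libraries in that class.

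Promoter sequences are shown for 3 members that carry the contrasts described below. Atp5g2, a c subunit of ATP synthase, had one of the largest ratios in melanocyte-like cells. Cox6b1 and Cox6b2 encode alternative versions of the same complex IV subunit, of which the first had UMIs in all 22 groups of cells and the second was highest in papilla and sheath cells. Each sequence covers 250 bases before and 50 after the RefSeq start on GRCm38.p6, read 5' to 3' on the gene's strand (minus for each), and capitals mark the motifs searched. The positions are chr15:102670998-102671297 for Atp5g2, chr7:30626065-30626364 for Cox6b1 and chr7:4753045-4753344 for Cox6b2.
Atp5g2: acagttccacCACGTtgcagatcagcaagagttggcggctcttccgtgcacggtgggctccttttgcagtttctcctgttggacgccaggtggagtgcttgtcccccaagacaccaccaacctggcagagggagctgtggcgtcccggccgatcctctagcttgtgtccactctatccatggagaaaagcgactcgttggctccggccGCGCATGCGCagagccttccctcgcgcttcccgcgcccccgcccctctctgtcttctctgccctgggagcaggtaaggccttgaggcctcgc
Cox6b1: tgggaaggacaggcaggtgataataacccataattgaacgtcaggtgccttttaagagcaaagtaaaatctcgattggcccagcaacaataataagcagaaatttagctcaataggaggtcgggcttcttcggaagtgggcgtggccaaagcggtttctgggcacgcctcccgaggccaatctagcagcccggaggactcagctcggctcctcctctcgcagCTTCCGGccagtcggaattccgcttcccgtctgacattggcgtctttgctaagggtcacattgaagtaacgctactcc
Cox6b2: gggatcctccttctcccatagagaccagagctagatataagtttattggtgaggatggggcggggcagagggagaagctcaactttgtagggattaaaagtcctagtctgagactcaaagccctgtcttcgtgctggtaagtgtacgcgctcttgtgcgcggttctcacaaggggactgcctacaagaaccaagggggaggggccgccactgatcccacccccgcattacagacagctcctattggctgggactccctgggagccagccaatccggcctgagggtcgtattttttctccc

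Motifs were searched on both strands of 32851 RefSeq promoters and of the 75 promoters that belong to 70 members. The motif of NRF1, a transcription factor known for driving respiratory genes, was searched in its palindromic consensus form, which reads the same on both strands. It was found in 319 promoters (0.971%) and in 5 of the 75 (6.67%), those of Atp5g2, Atp5k, Cox6a1, Ndufa11 and Uqcrc1. The core of the ETS family, CCGGAAG, was found in 8.86% of all promoters and in 20 of the 75 (26.7%). The core of the hypoxia response element, ACGTG, was found in 19.6% and in 17 of the 75 (22.7%). No motif contains another. In the sequences above, Atp5g2 held the NRF1 letters from base -42 and the reverse complement of the hypoxia core from base -240, Cox6b1 held the reverse complement of the ETS core from base -28, and Cox6b2 held none of these letters. Cox4i1, Cox4i2 and Ndufa4l2 had no entry. A match is a description of letters, not evidence of binding.

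Over all kept cells, the mitochondrial set was lower in TP and the nuclear set was slightly higher. The 13 mitochondrial genes held 4.07% of all UMIs in control and 3.37% in TP, with a ratio of 0.829 (0.828 to 0.830). The 86 nuclear genes held 14971 CPM in control against 16021 CPM in TP, with a ratio of 1.07 (1.068 to 1.072). Weighting every class by its share of the control's UMIs moved the mitochondrial ratio to 0.936 and left the nuclear ratio at 1.06. The mitochondrial set lay under the limit of 10% mitochondrial counts that defined a kept cell, and this limit removed 3465 control barcodes (7.58%) and 5871 TP barcodes (22.6%). The share over the limit was larger in TP in 22 of 22 groups of cells. Without the limit the mitochondrial ratio was 0.945, and in cells of 2000 to 6000 UMIs it was 1.14, so the direction of the whole-library difference depended on which cells were read. In those same cells the nuclear ratio was 0.797.

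The mitochondrial set ranged from 2.05% in DF-like cells (dermal fibroblasts) to 5.39% in cortex-like and 5.41% in cluster 3 cells of the control, and from 1.78% in DF-like to 5.83% in cluster 6 cells of TP. Among the highest levels were those of hair-forming keratinocytes and of the muscle-led cluster 29, which held 5.28% in control and 4.18% in TP. In inner root sheath-like cells the set was 5.16% in control and 5.02% in TP, and in companion layer and medulla-like cells it was 4.67% and 4.02%. Basal interfollicular epidermis (IFE basal-like) cells held 3.04% in control and 3.28% in TP, below these follicular classes. Papilla (DPC-like), myeloid-like and dermal sheath cup-like cells held 2.84%, 2.81% and 2.66% in control and 2.23%, 2.05% and 2.57% in TP. Over the 22 groups of cells, Spearman's rho between the libraries was 0.92 for the mitochondrial set, given as a description since all points share the same pair of libraries.

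**Figure D1:**
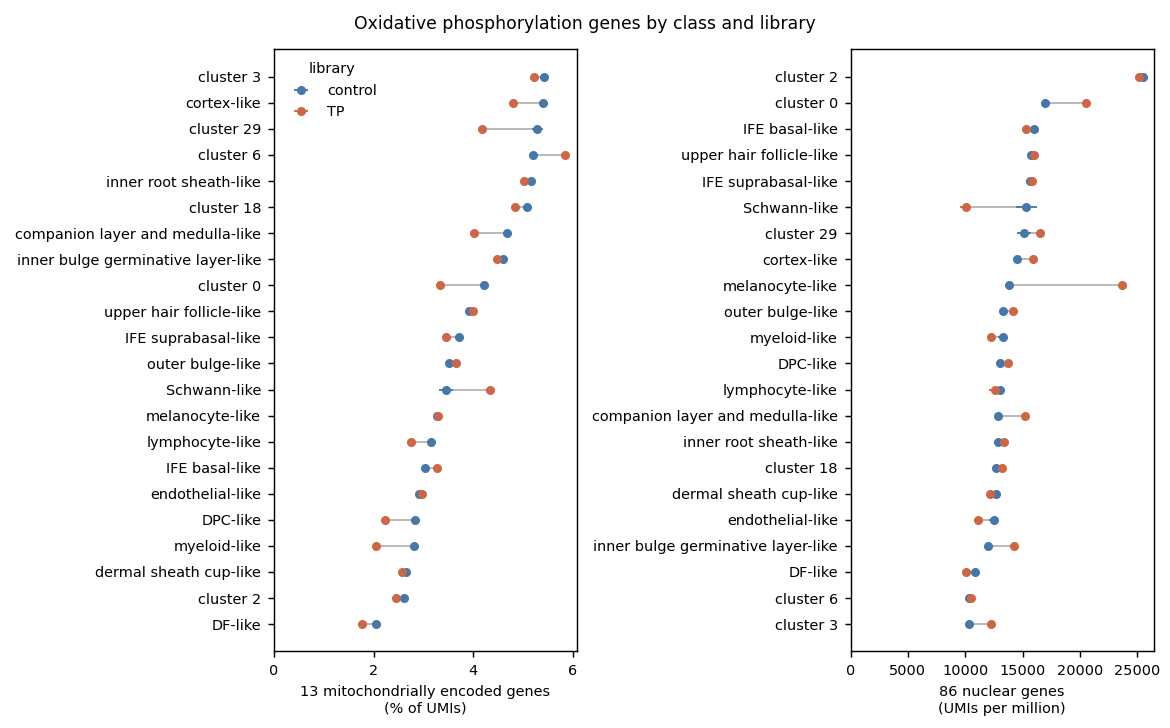
Level of the mitochondrial set (left, % of UMIs) and of the nuclear set (right, CPM) in 16 classes and 6 unnamed clusters, with 1 point per library (blue control, orange TP) and 95% counting intervals, sorted by the control. Most pairs of points lie close together, while the nuclear set of melanocyte-like cells stands at 13833 in control against 23676 in TP.

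The nuclear set followed another order. Cluster 2, the cells led by histone genes, held the highest level in both libraries, 25532 CPM in control against 25128 CPM in TP, although its mitochondrial set was among the lowest (2.62% and 2.45%). Among kept cells of the control, cluster 3, led by mitotic genes, held the highest mitochondrial set and the lowest nuclear set. Its nuclear set was 10320 CPM in control, against 12284 CPM in TP. IFE basal-like cells held 15967 CPM in control against 15315 CPM in TP, IFE suprabasal-like cells 15652 and 15843 CPM, and DF-like cells 10837 and 10057 CPM. Over the 22 groups, rho between the mitochondrial and the nuclear set was -0.15 in control and -0.003 in TP, and rho of the nuclear set between the libraries was 0.69.

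Between libraries, the mitochondrial set was higher in TP in 6 of 16 classes and the nuclear set in 9 of 16, and the ratio stayed within 1.1-fold in 9 and 11 classes. Neither count was stable: the mitochondrial count was 13 of 16 without the limit and 11 of 16 with TMM scaling or as a mean over cells, and the nuclear count was 3 of 16 as a mean over cells, 2 of 13 in cells of 2000 to 6000 UMIs and 13 of 16 with TMM scaling. The mitochondrial ratio was 0.786 (0.782 to 0.790) in DPC-like and 0.728 (0.711 to 0.746) in myeloid-like cells, and it remained below 1 in each alternative run, from 0.744 to 0.848 in DPC-like and from 0.540 to 0.923 in myeloid-like cells. The summed level of the 8 inner root sheath markers in these classes was 2185 CPM in control against 460.4 CPM in TP for DPC-like and 2366 against 448 CPM for myeloid-like cells. Of the myeloid-like cells, 61 of 135 in control and 216 of 359 in TP came from cluster 27, led by Ccl8 and C1qa. The part of these differences in the result was not tested. In Schwann-like cells (63 in control against 100 in TP) the sets moved apart. Their mitochondrial set was 3.46% in control and 4.35% in TP, and their nuclear set was 15329 and 10031 CPM. In the same cells the summed level of 8 fibroblast markers was 7568 CPM in control against 29409 CPM in TP, and that of the nuclear RNAs Malat1 and Neat1 was 28387 and 46601 CPM. Their part in the result was not tested.

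Both sets differed between shallow and deep cells, in opposite directions in most groups. The cells of each class and library were ordered by their UMIs and split evenly into a shallow, a middle and a deep part. These parts are ranks within a library and do not match depth between libraries. In IFE basal-like cells the shallow medians were 1312.5 UMIs in control against 1983 in TP, and the deep medians 3560 and 7615.5. The mitochondrial set was lower in the deep than in the shallow part in 15 of 22 groups of the control and in 19 of 22 of TP, and the nuclear set was higher in 15 and 20. In IFE basal-like cells of TP the mitochondrial set was 6.30% in the shallow part, 4.39% in the middle and 2.10% in the deep part, and the nuclear set was 8464, 11973 and 18359 CPM. The same class of the control held 4.61%, 3.65% and 2.22%, with 12636, 12865 and 18675 CPM. Some classes pooled clusters of unlike depth, so their parts can differ in kind of cell as well as in depth. Among IFE basal-like cells, cluster 9 had medians of 2765 UMIs in control against 5611 in TP, and cluster 12 had 1491 and 2166. These were not told apart. The ratio between libraries also changed from part to part. The mitochondrial set was higher in TP in 18 of 22 groups in the shallow part, 13 in the middle and 2 in the deep part, and the nuclear set in 1, 10 and 16. In 3 classes the mitochondrial ratio was below 1 in the shallow, middle and deep part alike: 0.784, 0.745 and 0.833 in DPC-like, 0.839, 0.540 and 0.818 in myeloid-like and 0.960, 0.743 and 0.934 in DF-like cells. The TP cells were deeper in each of these parts. In the deep part the medians were 3914 UMIs in control against 7637 in TP in DPC-like, 3448 and 6969 in myeloid-like and 5135 and 13252 in DF-like cells.

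**Figure D2:**
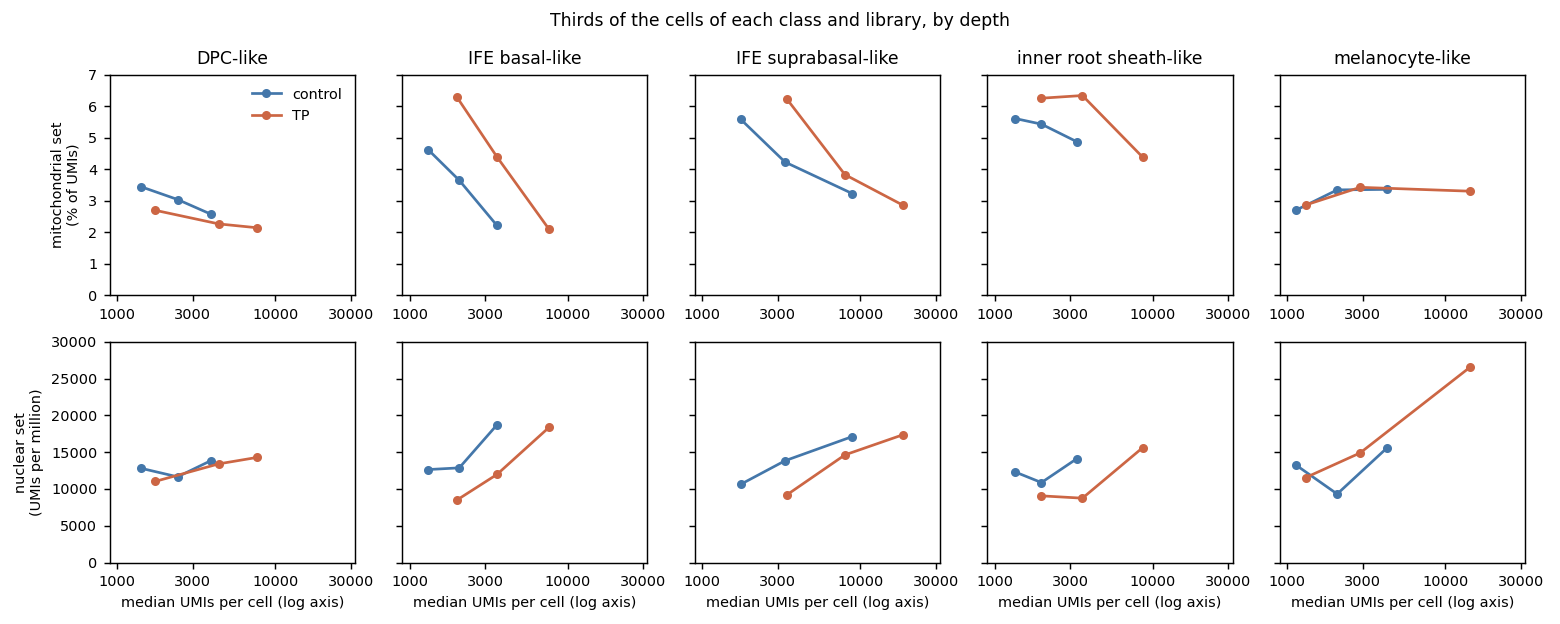
Mitochondrial set (top, % of UMIs) and nuclear set (bottom, CPM) against the median UMIs per cell (log axis) in the shallow, middle and deep part of the cells of 5 classes, with 1 line per library (blue control, orange TP). In the IFE-like classes the mitochondrial line descends and the nuclear line climbs with depth in each library, and in DPC-like cells the TP mitochondrial line stays under that of the control.

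Within the mitochondrial set, the shares of UMIs counted for several genes differed between libraries in the same direction in nearly every group of cells, while others were divided. The share of mt-Cytb was higher in TP in 12 groups and lower in 10, and that of mt-Atp6 was higher in 6 and lower in 16. mt-Atp8, which encodes a small subunit of ATP synthase (MT, from 7766 to 7969 on GRCm38.p6), held 1.06% of the set's UMIs in control and 0.665% in TP, a share ratio of 0.630 (0.621 to 0.640). Its share was lower in TP in 22 of 22 groups, with ratios from 0.551 in Schwann-like to 0.792 in cluster 0 cells. The control groups lay between 0.793% and 1.18% and the TP groups between 0.497% and 0.886%. mt-Nd6 (MT, from 13552 to 14070), the complex I subunit encoded on the opposite strand from the others, held 0.0755% of the set in control and 0.0405% in TP, and its share was lower in 20 of 22 groups. The shares of mt-Nd5, also of complex I, were lower in 22 of 22 groups, and those of mt-Nd4l in 21 of 22. In contrast, the shares of mt-Nd1 and mt-Co2, subunits of complexes I and IV, were higher in TP in 22 of 22 groups. Over all kept cells mt-Co2 held 11.4% in control against 13.1% in TP, but mt-Nd1 went the other way, from 7.11% to 7.01%, a share ratio of 0.986 (0.981 to 0.991). mt-Nd3 held 0.240% in control and 0.314% in TP and was higher in 20 of 22.

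The difference in mt-Atp8 was also present among removed barcodes and in a depth range of the kept cells. Among the barcodes removed for mitochondrial content its share was 0.963% in control and 0.660% in TP, with a ratio of 0.685 (0.665 to 0.706), and among cells of 2000 to 6000 UMIs the ratio was 0.648 (0.633 to 0.663). Levels over all UMIs gave the same order: mt-Atp8 was 429.5 CPM in control against 224 CPM in TP (0.523), and mt-Nd6 was 30.7 and 13.7 CPM (0.445). These were the only mitochondrial members lower by 1.5-fold, 2 of 13, where 23% of the 14783 genes tested were lower, and 0 of 13 were higher, against 13%. Altogether 12 of 13 lay below 1, mt-Nd3 being the exception, and their median log2 ratio was -0.29 against -0.22 for all genes. mt-Atp8 overlaps mt-Atp6 by 43 bases, mt-Nd4l overlaps mt-Nd4 by 7 and mt-Nd6 overlaps mt-Nd5 by 14, and nuclear copies of mitochondrial sequences exist, so the split of reads among these genes is uncertain.

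**Figure D3:**
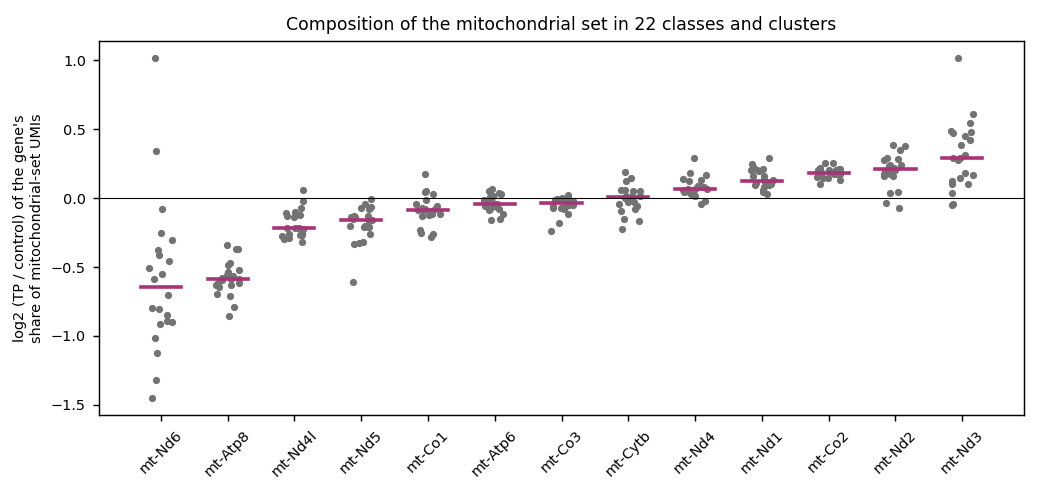
The log2 ratio (TP over control) of each mitochondrial gene's share of the set's UMIs (y axis) for the 13 genes (x axis), with 1 grey point for each of 22 classes and clusters and a bar at their median. All points of mt-Atp8 lie below 0, and all points of mt-Co2 and mt-Nd1 lie above 0.

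Among the nuclear members over all kept cells, 2 of 86 were higher in TP (Ndufa4l2 and Cox4i2) and 1 was lower (Cox7a1), against 13% of all genes higher and 23% lower. With every class weighted by its share in the control, 0 members were lower, so the Cox7a1 call was lost. The higher calls under this weighting are not given here. Ndufa4l2 was 143 CPM in control against 335 CPM in TP over all kept cells. Its levels lay closer in the IFE basal-like (577 and 618 CPM) and IFE suprabasal-like cells (482 and 599.7 CPM), where it was highest. The median log2 ratio of the members was 0.08 and that of all genes -0.22, with 55 members above 1 and 31 below. By complex, the summed nuclear levels had ratios of 1.05 for complex I, 0.908 for complex II, 1.05 for complex III, 1.14 for complex IV and 1.05 for complex V. For the mitochondrially encoded subunits the ratios were 0.820 (complex I), 0.747 (complex III), 0.860 (complex IV) and 0.792 (complex V). The catalytic subunits of complex II had ratios below 1 that did not pass 1.5-fold. Sdha was 67.2 CPM in control against 53.0 CPM in TP (0.789) and Sdhb 114 and 91.1 CPM (0.797). The membrane anchor of that complex, Sdhc, was 44.3 and 55.2 CPM (1.2465). Ndufs1, a subunit of complex I that carries iron-sulfur clusters, was 72.6 CPM in control against 53.2 CPM in TP (0.733). The assembly factor Sdhaf3 was 19.02 and 15.33 CPM (0.806). On the other side, Atp5d, of the ATP synthase catalytic part, was 271 CPM in control against 368 CPM in TP (1.36), and Atp5g1, which encodes the same c subunit as Atp5g2, was 261 and 339 CPM (1.30). Cox7a1, known as the heart and skeletal muscle form of its complex IV subunit, had 186 UMIs in control, against 120 in TP, with a ratio of 0.518 (0.408 to 0.655), and was highest at 20.7 CPM in the cluster 29 cells of TP.

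The spread of each nuclear member over cell types was read as the coefficient of variation of its CPM over the 22 groups, which counting noise raises for genes with few UMIs. The median of 85 members was 0.270 in control and 0.311 in TP. The highest values in control were those of Cox4i2 (2.27), Ndufa4l2 (1.64), Cox6b2 (1.05), Sdhc (0.659) and Atp5o (0.395). Of these, 3 are the less widespread partners of a paralog pair. Sdhc was highest in cluster 29, 183 CPM in control against 165 CPM in TP, and Atp5o, the ATP synthase subunit that ties its parts together, was highest in cluster 2, 474 and 516 CPM.

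Cox4i2 (ENSMUSG00000009876, chromosome 2 from 152753916 to 152765039) encodes the complex IV subunit 4 version known for low oxygen and for oxygen-sensing cells. It was found in DPC-like, dermal sheath cup-like and cluster 29 cells and hardly elsewhere. In DPC-like cells it was 23.03 CPM (20.4 to 25.9) in control against 57.1 CPM (52.3 to 62.1) in TP, from 272 and 539 UMIs, a ratio of 2.48 (2.14 to 2.88). In dermal sheath cup-like cells it had 7 UMIs in control against 32 in TP, which is 12.2 and 44.0 CPM, a ratio of 3.62 (1.57 to 9.71). In cluster 29 it had 5 and 39 UMIs, 29.5 and 67.1 CPM. The other 19 groups together held 58 UMIs in control against 53 in TP and lay at 2.03 CPM or less in control and 2.85 CPM or less in TP. DF-like cells of the control held 0 UMIs, with an upper bound of 8.30 CPM. In TP the dermal sheath cup-like cells also held more of the 8 fibroblast markers, 17186 CPM against 6430 CPM in control. DF-like cells of TP held Cox4i2 at 2.85 CPM. Levels of papilla and muscle markers in the dermal sheath cup-like cells are not given here. Whether RNA of other cells accounts for the difference in that class was not tested. The widespread partner Cox4i1 (chromosome 8 from 120668225 to 120674209) was 643 CPM in control against 943 CPM in TP in DPC-like cells, a ratio of 1.47 (1.42 to 1.51).

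Cox6b2 (ENSMUSG00000051811, chromosome 7 from 4751792 to 4753094) was likewise highest in DPC-like and dermal sheath cup-like cells. It is best known from testis, while Cox6b1 (chromosome 7 from 30616971 to 30626114) is the general form. In DPC-like cells Cox6b2 was 41.4 CPM (37.8 to 45.2) in control against 80.5 CPM (74.8 to 86.4) in TP, with a ratio of 1.94 (1.73 to 2.18). The dermal sheath cup-like cells went the other way on the point values, 53.8 and 33.0 CPM, but their interval of 0.344 to 1.08 includes 1. Elsewhere Cox6b2 reached at most 19.6 CPM in control against 28.5 CPM in TP. Cox6b1 in DPC-like cells was 207 and 217 CPM, a ratio of 1.05 (0.989 to 1.11).

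Ndufa4l2 (ENSMUSG00000040280, chromosome 10 from 127509274 to 127517154), known as a target of hypoxia-inducible factor and a relative of the complex IV subunit Ndufa4, was highest in the IFE-like classes. In IFE basal-like cells it was 577 CPM in control against 618 CPM in TP, with a ratio of 1.07, and in IFE suprabasal-like cells 482 and 599.7 CPM, a ratio of 1.24. Its whole-library levels of 143 and 335 CPM gave a larger ratio, 2.34 (2.30 to 2.38). IFE basal-like cells numbered 2796 in control against 3127 in TP, and IFE suprabasal-like cells 3586 and 4717, out of 39076 and 18542 kept cells. In the other 20 groups it ranged from 16.2 to 153 CPM in control and from 23.3 to 176 CPM in TP. All 20 of these groups also held UMIs of IFE markers (17 of 17 in every group of TP and 14 to 17 in control), from 1959 to 15935 CPM in control and from 3932 to 24053 CPM in TP. Set against these, Ndufa4l2 amounted to 32.7 per 1000 IFE marker UMIs in IFE basal-like cells of the control and 22.1 in those of TP, and to 11.7 and 9.52 in IFE suprabasal-like cells. In 16 of the 20 groups it amounted to 4.79 to 11.4 in control and 3.25 to 9.84 in TP. The suprabasal values lay just above the control range and within the TP range. The remaining 4 lay above those 16 in TP: cluster 29 (40.9 in control against 31.7 in TP), DF-like (15.0 and 27.7), dermal sheath cup-like (9.23 and 19.8) and lymphocyte-like cells (9.74 and 15.2). The lymphocyte-like cells came mostly from different subclusters in the libraries, with 139 of 255 control cells in 1 that held no TP cell. An IFE marker UMI need not come from an IFE cell, and the source of these UMIs was not tested. The lowest amounts per 1000 were those of other keratinocytes, outer bulge-like in control (4.79) and upper hair follicle-like in TP (3.25). The upper hair follicle-like cells also held the most IFE marker UMIs of the 20 groups.

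**Figure D4:**
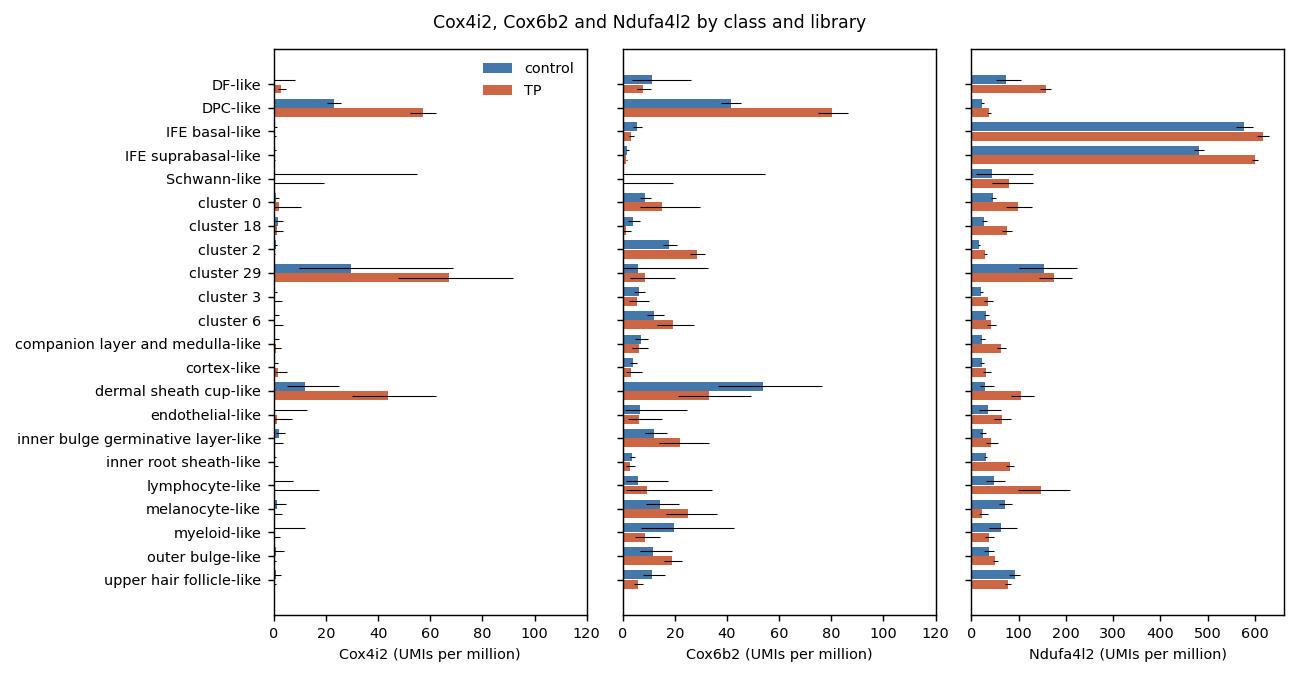
Levels (CPM, bars from 0, with 95% counting intervals) of Cox4i2, Cox6b2 and Ndufa4l2 in 16 classes and 6 unnamed clusters of the control (blue) and TP (orange) libraries. Cox4i2 stands out in DPC-like, dermal sheath cup-like and cluster 29 cells, Cox6b2 in DPC-like and dermal sheath cup-like cells, and Ndufa4l2 in the IFE-like classes.

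Ndufa4 itself (chromosome 6 from 11900372 to 11907450) was 219 CPM in control against 365 CPM in TP in IFE suprabasal-like cells, a ratio of 1.67 (1.61 to 1.72). It was the only nuclear member past 1.5-fold in that class, 1 of 83 higher and 0 lower, where 4.98% and 20.1% of all genes were higher and lower. Among cells of 2000 to 6000 UMIs its ratio was 0.954, on the other side of 1. In IFE basal-like cells 0 of 83 nuclear members were higher and 0 lower, against 3.41% and 4.79% of all genes. For the other widespread paralogs, groups with a ratio above 1 were counted, whatever its size and the number of UMIs. Of the 22 groups, these were 17 for Cox6b1 and Atp5g1, 17 for Atp5g3, 16 for Cox4i1 and Atp5g2, 15 for Cox8a, 14 for Cox7a2 and 7 for Cox6a1. The share of all genes above 1 was not taken. Over all kept cells the ratios of Cox6a1, Cox7a2, Cox7a2l, Cox7b and Cox8a lay between 0.992 and 1.16.

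In DPC-like cells, the signalling cells at the base of the follicle, 4 of 85 nuclear members were higher in TP (Cox4i2, Cox6b2, Ndufa4l2 and Sdhc) and 1 was lower (Uqcr11), where 7.65% and 12.1% of all genes were higher and lower. The median log2 ratio was 0.07 for the members and -0.08 for all genes. Uqcr11, a small subunit of complex III, was 184 CPM in control against 118 CPM in TP, with a ratio of 0.641 (0.596 to 0.689). Sdhc was 52.1 and 81.5 CPM, a ratio of 1.56 (1.40 to 1.74). Ndufa4l2, at 23.4 and 37.3 CPM, amounted to 7.99 and 8.03 per 1000 IFE marker UMIs. All 13 mitochondrial members had a ratio below 1, from mt-Co2 at 3384 and 2921 CPM (0.863) to mt-Atp8 at 278 and 152 CPM (0.546). Of these, 2 passed 1.5-fold (mt-Atp8 and mt-Nd6). Their median log2 ratio was -0.36, against -0.08 for all genes, and the share of all genes below 1 was not taken. The libraries held different mixes of DPC-like clusters: cluster 4 held 2445 control and 556 TP cells, cluster 11 held 1648 and 830, and cluster 25 held 32 and 293. Without cluster 25 the ratios were 2.67 for Cox4i2, 1.77 for Cox6b2 and 0.801 for the mitochondrial set. Among cells of 2000 to 6000 UMIs they were 1.84, 1.39 and 0.848.

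Melanocyte-like cells, the pigment cells of the follicle, had the largest difference in the nuclear set of any class. The set was 13833 CPM (13648 to 14020) in the 502 control cells and 23676 CPM (23392 to 23964) in the 177 TP cells, a ratio of 1.71 (1.68 to 1.74). Members of every complex were involved, with ratios of 1.65 for complex I, 1.59 for complex II, 1.77 for complex III, 1.81 for complex IV and 1.69 for complex V. Of 74 nuclear members with enough UMIs, 57 were higher and 0 lower, against 20.3% of 2889 genes higher and 29.7% lower, and the median log2 ratio was 0.78 against -0.18 for all genes. Ndufb5, of the membrane arm of complex I, was 102 CPM in control against 243 CPM in TP (2.38), and Uqcrfs1, the iron-sulfur protein of complex III, was 75.3 and 174 CPM (2.31). Atp5g2, whose promoter is shown above, was 271 and 611 CPM (2.26), and Cox4i1 was 572 and 1219 CPM (2.13). The mitochondrial set was 3.28% in control and 3.29% in TP, with a ratio of 1.00 (0.991 to 1.02).

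The nuclear set of melanocyte-like cells moved with how strongly the cells carried melanocyte markers and with markers of other cells. The summed level of the 6 melanocyte markers was 20769 CPM in control against 31300 CPM in TP, and that of the 8 inner root sheath markers was 3680 and 349 CPM. In the 8 dermal, immune and melanocyte classes together those sheath markers ranged from 1681 to 5372 CPM in control and from 321 to 1189 CPM in TP. Cells with melanocyte markers under 5 per 1000 UMIs held the nuclear set at 10468 CPM in control against 14051 CPM in TP. For 5 to 20 per 1000 the levels were 10024 and 14638 CPM, for 20 to 50 they were 16809 and 25715 CPM, and for 50 or more they were 27745 and 29316 CPM, the last from 18 and 6 cells. The ratios in these ranges were 1.34, 1.46, 1.53 and 1.06. Among cells with fewer than 1 sheath marker UMI in 1000, the nuclear set was 23847 CPM in 49 control cells and 24438 CPM in 133 TP cells, a ratio of 1.02. Among the others it was 11021 CPM in 453 and 11952 CPM in 44 cells, a ratio of 1.08. Most control cells thus stood in the range with more sheath marker UMIs and most TP cells in the other, and the nuclear set was close within each range. The mitochondrial set was not, at 2.46% and 3.33% in the range with few sheath marker UMIs and 3.50% and 2.63% in the other. Melanocyte markers in the range with few sheath marker UMIs were 45155 CPM in control and 32345 CPM in TP, with medians of 5932 and 3903 UMIs per cell. Depth moved too, since the shallow part of the class had a ratio of 0.873, the middle part 1.60 and the deep part 1.71. These splits were made after the class ratio had been seen, and whether marker content or depth accounts for the difference was not tested.

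**Figure D5:**
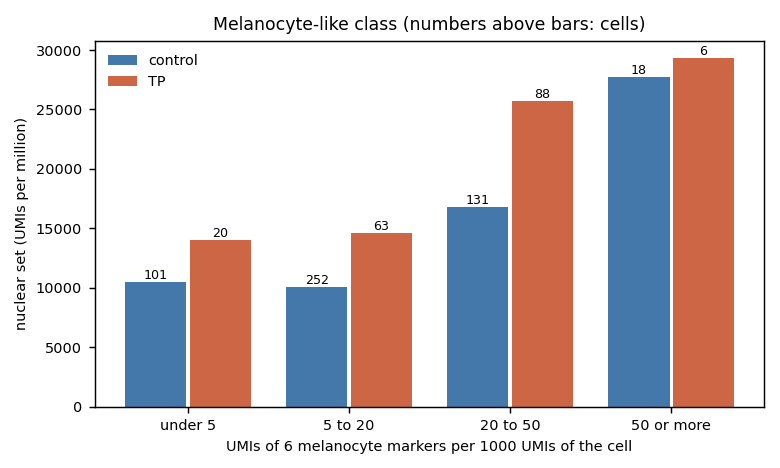
Nuclear set (CPM, bars from 0) in melanocyte-like cells grouped by their UMIs of 6 melanocyte markers per 1000 UMIs, for control (blue) and TP (orange), with the number of cells above each bar. The level is higher in cells with 20 or more marker UMIs per 1000 in each library, and the libraries lie closest in the cells with 50 or more.

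In DF-like cells (122 in control against 521 in TP) 1 of 74 nuclear members was higher, Ndufa4l2, and 5 were lower, where 9.44% and 15.6% of all genes were higher and lower. Atp5md, a small membrane subunit of ATP synthase, was 171 CPM in control against 98.4 CPM in TP, with a ratio of 0.576 (0.4505 to 0.744). Sdhb was 106 and 65.1 CPM (0.616), and Ndufb4 was 117 and 74.5 CPM (0.637), from 47 and 52 control UMIs. Atp5md was also lower in myeloid-like cells, 206 and 131 CPM, a ratio of 0.635 (0.477 to 0.855), and in dermal sheath cup-like cells, 210 and 135 CPM, a ratio of 0.641 (0.486 to 0.843). In the dermal sheath cup-like class it was the only nuclear member of 30 past the fold, with 12.8% of all genes higher and 10.4% lower. Over the 22 groups Atp5md had a ratio above 1 in 5.

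In myeloid-like cells 2 of 52 nuclear members were higher, Ndufv3 (71.8 and 129 CPM) and Atp5o (94.6 and 162 CPM), and 2 were lower, Atp5md and Ndufc1 (179 and 116 CPM), against 23.5% and 12% of all genes. Among the mitochondrial members of that class 4 of 11 were lower (mt-Atp8, mt-Nd5, mt-Cytb and mt-Atp6). Outer bulge-like cells, which hold follicle stem cell markers, had 3 of 79 nuclear members higher and 0 lower, against 5.48% and 6.95%. These were Sdhc (34.4 and 64.2 CPM), Ndufa11 (149 and 241 CPM) and Ndufb3 (57.8 and 86.8 CPM). In upper hair follicle-like cells 1 of 80 was higher, Sdhd at 20.04 and 31.3 CPM, and 0 were lower, against 3.7% and 4.89%.

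Inner bulge germinative layer-like cells had 2 of 76 nuclear members higher and 0 lower, against 3.89% and 8.11% of all genes. These were Ndufa8 (49.0 and 77.8 CPM) and Atp5o (157 and 252 CPM), and the ratio of Atp5o turned from 1.60 to 0.646 in cells of 2000 to 6000 UMIs. Inner root sheath-like cells had 1 of 83 higher, Ndufa4l2 (30.4 and 81.0 CPM), and 0 lower, against 4.35% and 9.68%. IFE markers in these cells were 3669 and 8228 CPM, and Ndufa4l2 amounted to 8.28 and 9.84 per 1000 of their UMIs. Companion layer and medulla-like cells had 2 of 79 higher, Ndufa4l2 (23.4 and 63.1 CPM) and Ndufab1 (102 and 157 CPM), and 0 lower, against 4.67% and 8.66%. There IFE markers were 2790.03 and 7731 CPM, and Ndufa4l2 amounted to 8.39 and 8.17 per 1000 of their UMIs. In cortex-like cells 0 of 81 were higher and 0 lower, against 3.64% and 9.27%. Of the mitochondrial members, mt-Atp8 was the 1 of 12 lower in inner bulge germinative layer-like cells, and mt-Atp8 and mt-Nd6 were the 2 of 13 lower in each of the inner root sheath-like, companion layer and medulla-like and cortex-like cells.

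Some small classes held few nuclear members with enough UMIs. In Schwann-like cells 0 of 86 nuclear members reached the minimum, and of 10 mitochondrial members 1 was higher, mt-Nd1 (2419 and 3718 CPM), and 0 lower, against 18.5% and 36.9% of all genes. In endothelial-like cells 0 of 19 nuclear members were higher and 0 lower, against 13.3% and 5.59%, and in lymphocyte-like cells 0 of 8 were higher and 0 lower, against 9.48% and 9.66%. Among the mitochondrial members of lymphocyte-like cells, mt-Atp8 was lower (374 and 189 CPM).

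Cluster 0 had 7 of 79 nuclear members higher, among them Ndufa4l2, Ndufb3 (82.5 and 149 CPM) and Atp5g1 (298 and 499 CPM), and 1 lower, Ndufs1 (87.3 and 56.5 CPM), against 5.2% and 19.8% of all genes. This cluster held 6035 control and 355 TP cells and had medians of 889 and 715 UMIs. Of the barcodes assigned to it, 21.9% in control and 85.9% in TP lay over the mitochondrial limit, so the TP cells read were the small remainder under it. Cluster 2 had 2 of 84 higher, Ndufa4l2 and Cox6b2, and 0 lower, against 5.59% and 2.6%. In cluster 18 Ndufa4l2 alone was higher, 1 of 78, and 0 were lower, against 5.17% and 4.99%, and in cluster 3 it was 1 of 80 higher and 0 lower, against 4.09% and 7.27%. IFE markers were higher in TP in all of these clusters, at 5532 and 14024 CPM in cluster 0, 1959 and 3932 CPM in cluster 2, 3010.4 and 9141 CPM in cluster 18 and 2949 and 4187 CPM in cluster 3. Ndufa4l2 amounted to 8.33 and 6.98, 8.25 and 7.43, 9.11 and 8.27, and 7.13 and 8.37 per 1000 IFE marker UMIs in the same order. In cluster 6 Ndufa11, a complex I subunit, was 1 of 78 higher (74.4 and 113 CPM) and 0 were lower, against 3.06% and 4.82%. In cluster 29 Cox8a, of complex IV, was 1 of 18 higher (407 and 618 CPM) and 0 were lower, against 12.9% and 5.13%.

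Genes of the pathway outside the members were read as 3 lists. Of 10 carrier and electron shuttle genes over all kept cells, 0 were higher and 0 lower, and their sum was 1517 CPM in control against 1511 CPM in TP (0.996). Of 27 assembly factors, 0 were higher and 5 lower (Ndufaf6, Ndufaf7, Cox10, Cox15 and Atpaf1), with sums of 1023 and 883 CPM (0.863). Of 16 genes for the expression of mitochondrial DNA and its regulators, 0 were higher and 6 lower (Mtif2, Lrpprc, Twnk, Ppargc1a, Pprc1 and Nrf1). That list summed to 661 CPM in control against 465 CPM in TP, with a ratio of 0.704. Within the 22 groups its ratio ran from 0.676 in myeloid-like to 0.922 in cluster 2 cells. It was 0.896 in IFE basal-like and 0.787 in IFE suprabasal-like cells. The list's median log2 ratio in these classes was -0.12 and -0.34, against -0.11 and -0.22 for all genes. Of its genes with enough UMIs, 0 of 14 and 2 of 15 were lower there, against 4.79% and 20.1% of all genes. In DPC-like cells 3 of 13 were lower, against 12.1%. The IFE basal-like and suprabasal-like classes made up 7.16% and 9.18% of kept control cells, against 16.9% and 25.4% of kept TP cells. Twnk, the helicase of mitochondrial DNA, was 26.4 CPM in control against 13.7 CPM in TP over all kept cells (0.518). Lrpprc, which stabilizes mitochondrial mRNAs, was 80.8 and 50.6 CPM over the same cells (0.627). Over all kept cells 23% of all genes were lower. In melanocyte-like cells 7 of 8 carrier genes with enough UMIs were higher, against 20.3% of all genes in that class, among them Slc25a4, which exchanges ATP and ADP across the inner membrane (330 and 941 CPM), and Cycs, cytochrome c (85.1 and 177 CPM). These ratios were taken over the whole class, whose marker content differed between libraries as described above.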

How the data were processed

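Cells of dorsal skin were measured by a droplet assay that counts the 3' ends of RNAs (10x GEM-X v4), in 1 control and 1 TP library. The deposited counts are whole-number UMIs per gene and barcode, made by the authors with Cell Ranger 8.0.1 on mm10 per the submitters' processing notes. The reference was release mm10-2020-A per the study's methods. The antibody group is not analysed here.

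The limits for a kept barcode were 200 to 8000 genes and 10% mitochondrial counts. Doublets were scored by a rewritten version of the DoubletFinder procedure (25% artificial doublets, 30 components, nearest 1% of cells), and the top 7.5% were removed (3168 control and 1503 TP barcodes). Cells were integrated and clustered with Seurat 5.3.0 in R 4.3.3 (reciprocal PCA, 2000 variable genes, 30 components, resolution 1), leaving out the members and all mitochondrial genes. Mixed clusters were split again (20 components, resolution 0.6). Classes were named from 168 markers of 22 classes. The naming score (1) and the splitting were chosen with the clusters in view. Groups of cells with at least 50 cells per library were read.

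UMIs were summed per class and library with Python 3.11.15, numpy 2.4.6, scipy 1.17.1 and pandas 2.3.3. With 1 pool of 15 mice per condition no test was made, and the exact 95% intervals cover counting error only. Depth was 105501099 UMIs in kept control and 131432991 in kept TP cells. A gene was called where it differed by 1.5-fold and had at least 200 UMIs over both libraries. Scripts were tested on simulated data. Positions came from RefSeq on GRCm38.p6, which matched 103 of 103 symbols. Named genes were all mitochondrial members, the paralog groups, the 5 largest and 5 smallest ratios over all cells, the 3 largest and 3 smallest past the fold in each class, and the 5 most variable over control classes. Other genes named in the text were chosen after their values were seen. The members and lists were chosen with earlier results of these data known. Alternatives were the mitochondrial limit, doublets, depth, class shares, resolution, the fold and the TMM factor of edgeR 4.0.16.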

Additional observations from a re-analysis of the deposited data

Results flagged for a closer look

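A share of 22.6% of TP barcodes lay over the mitochondrial limit, against 7.58% in control. These barcodes were outside the kept cells and entered only the values given for removed barcodes or without the limit.

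Ratios of TP over control on opposite sides of 1 in different classes drew attention to the following results, and with 1 library per condition the differences between classes were not tested. The mitochondrial set had a ratio of 1.26 in Schwann-like cells, 0.786 in DPC-like cells and 0.728 in myeloid-like cells. Inner root sheath markers were lower in TP in the latter classes, from 2185 to 460.4 CPM in DPC-like and from 2366 to 448 CPM in myeloid-like cells. In Schwann-like cells fibroblast markers and the nuclear RNAs Malat1 and Neat1 were higher in TP, with values given above. The nuclear set had a ratio of 1.71 in melanocyte-like and 0.654 in Schwann-like cells. In melanocyte-like cells split by their inner root sheath marker UMIs, below or from 1 in 1000, the nuclear ratio was 1.02 and 1.08. The lower range held 49 control and 133 TP cells, and the other 453 and 44. Cells of the lower range were not alike, with medians of 5932 and 3903 UMIs and melanocyte markers at 45155 and 32345 CPM. Split by the cells' melanocyte marker UMIs per 1000, the nuclear ratio was 1.34 under 5, 1.46 for 5 to 20, 1.53 for 20 to 50 and 1.06 for 50 or more. The last range held 18 control and 6 TP cells. What accounts for the difference was not tested. The single-gene ratios of that class given next were taken without these splits.

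Ndufb4, of the membrane arm of complex I, was 108 and 193 CPM (control and TP) in melanocyte-like cells (1.79), and its ratio in DF-like cells was 0.637. Sdhb, the iron-sulfur subunit of complex II, was 136 and 222 CPM in melanocyte-like cells (1.64), and its ratio in DF-like cells was 0.616. Uqcr11 was 264 and 469.6 CPM in melanocyte-like cells, a ratio of 1.78, and its ratio in DPC-like cells was 0.641.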

How the results depend on the processing

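No paired analysis was possible because each condition had 1 library, and leaving out a replicate was not possible. Depth and the mitochondrial limit bound these values: TP cells held more UMIs in most classes and more TP barcodes lay over the limit, and neither can be told apart from the condition.

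The mitochondrial ratio over all kept cells (0.829) was 0.889 with a limit of 20%, 0.945 without a limit, 0.827 with doublets kept, 1.14 in cells of 2000 to 6000 UMIs, 0.95 as a mean over cells, 0.936 and 0.948 with the class shares of control and TP, and 0.985 with the TMM factor. The nuclear ratio (1.07) was 1.05, 1.04, 1.09, 0.797, 0.961, 1.06, 1.02 and 1.27 under the same settings in that order, and 1.06 over nuclear UMIs alone. Classes with a higher mitochondrial set in TP (6 of 16) numbered 13 without the limit, 3 with doublets kept, 11 of 13 in cells of 2000 to 6000 UMIs, 11 with TMM and 11 as a mean over cells. Classes with a higher nuclear set (9 of 16) numbered 5 without the limit, 2 of 13 in cells of 2000 to 6000 UMIs, 3 as a mean over cells and 13 with TMM. Higher nuclear members (2) numbered 6 when counted from 25% above control (or the reciprocal), 1 at 2-fold and 6 with TMM, and lower members (1) numbered 4, 0 and, with control class shares, 0. The share of all genes past the fold was taken only for the main setting, 13% higher and 23% lower. The other counts therefore have no share beside them.

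Among ratios of class sums differing by 25% or more and named genes past 1.5-fold with at least 200 UMIs, those that turned to the other side of 1 were the nuclear set of melanocyte-like cells in the shallow part (0.873), the mitochondrial set of cluster 0 without the limit (3.37) and in the shallow part (1.05), that of cluster 29 in the shallow part (1.36), and, in cells of 2000 to 6000 UMIs, Ndufa4 in IFE suprabasal-like (0.954) and Atp5o in inner bulge germinative layer-like cells (0.646). The cause was not tested. Of 59 gene ratios past 1.5-fold with any number of UMIs, 0 changed side with TMM or without the limit, and 1 with doublets kept, mt-Nd6 in Schwann-like cells (0.957). Over ratios of any size many more turned: of 44 class sums, 16 without the limit, 26 in the shallow part and 12 with TMM, and in cells of 2000 to 6000 UMIs 20 of 34 class sums and 93 of 225 gene ratios.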
